A study of Mus musculus with 16 samples.

Results

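The interaction of the Dp16 duplication and the 5xFAD amyloid transgenes was measured gene by gene in the mouse hippocampus, as the difference between the Dp16 effect with and without the transgenes. For each gene it is (5xFAD-Dp16 minus 5xFAD) minus (Dp16 minus WT) on the log2 scale, so that 0 means that the 2 genotypes combined additively, which on this scale is a product of their fold changes. A negative value means that 5xFAD-Dp16 mice lay below the additive expectation, and a positive value that they lay above it; both are called departures here. All 16 libraries of the series entered it, 4 from each of 4 groups, and 17132 of the 55385 genes in the count table had enough reads to be tested.

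The groups were 5xFAD-Dp16 mice, which carry both alterations, 5xFAD mice, Dp16 mice and wild-type C57BL/6J mice (WT), all aged 9 months and untreated, with 2 females and 2 males each. Polyadenylated RNA of the whole hippocampus was sequenced. Library totals lay between 16922937 and 25308693 counts. Levels are given as CPM, counts scaled to library size and composition, in the order of the library numbers: 1, 8, 9 and 11 for 5xFAD-Dp16, 6, 10, 13 and 15 for 5xFAD, 3, 5, 12 and 14 for Dp16, and 2, 4, 7 and 16 for WT. The labels give no strain background for the 3 altered groups and no litters. The tissue was whole, so that fewer cells of a type and less RNA per cell cannot be told apart.

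Dp16 mice carry an extra copy of a stretch of mouse chromosome 16 whose genes lie on chromosome 21 in people, and serve as a model of Down syndrome. The stretch holds App, which encodes the amyloid precursor protein, and a cluster of interferon receptor genes. 5xFAD mice carry human amyloid transgenes driven by Thy1 promoter sequences in neurons, and deposit amyloid in the brain. Around plaques, microglia take up a characteristic state that depends on the receptor Trem2 and its adaptor Tyrobp, with rises in lysosomal, lipid-handling and antigen-presenting genes, and astrocytes raise Gfap. People with Down syndrome often develop Alzheimer disease, and whether the duplication alters the response to amyloid is the question this design can address.

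The targeted loci followed the labels. Thy1, whose sequences drive the transgenes, had 2416, 2420, 2679 and 2585 CPM in 5xFAD-Dp16 mice and 1991, 2821, 1872 and 1354 CPM in 5xFAD mice, against 934, 872, 906 and 841 CPM in Dp16 mice and 792, 742, 698 and 766 CPM in WT mice. Every library with the transgenes lay above every library without them. The departure of Thy1 was 0.08 ± 0.22 (SE of the fit), with its sign reversed, at -0.38, when the 6 libraries rich in thalamus markers, described next, were left out. Reads from the transgene and from the endogenous gene were not told apart. The 6 hippocampal markers checked were present in every library; the lowest value was 28.0 CPM, for Grik4.

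Several libraries stood apart in measures other than the targeted loci. Markers of the thalamus, which borders the hippocampus, were high (mean log2 level over 0.5 above the WT mean) in 6 libraries: 5xFAD-Dp16 1, 5xFAD 6, 13 and 15, Dp16 14 and WT 4. The 5xFAD group therefore had 3 such libraries and each other group 1. The balance of long and short transcripts also differed. The tested genes were cut into 5 equal bins by exon length. The mean log2 level of the longest bin minus that of the shortest, set at 0 for the WT mean, is called the long minus short score. It was -0.54 in 5xFAD 6, -0.44 in 5xFAD 15, -0.20 in 5xFAD 10 and -0.10 in 5xFAD 13. In the other groups it lay between -0.13 and 0.13. Low scores thus fell mainly in the 5xFAD group, so the score and the 5xFAD genotype cannot be fully told apart. Both sets of libraries weigh on the 5xFAD arm of the interaction, so values without the libraries of high thalamus score, or with the long minus short score as a covariate (the length covariate), stand beside many results below. The fit without the libraries of high thalamus score leaves 5xFAD 10 as the only 5xFAD library.

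No gene departed from additivity at the threshold for calls (adjusted p below 0.05, edgeR's quasi-likelihood test with Benjamini-Hochberg adjustment over all 17132 genes). The number called was 0 of 17132, or 0%, and the smallest adjusted p was 0.718. At an unadjusted p below 0.05 there were 1114 genes, or 6.5%: 496 above additivity (2.9%) and 618 below it (3.61%). DESeq2 also called 0 genes, with 1168 at an unadjusted p below 0.05, and limma on the log2 RPKM values called 0 with either pseudocount. Calls appeared in 2 alternatives: 290 with no filter on low counts, and 15 without the 6 libraries of high thalamus score, which leaves 1 5xFAD library. Every fit that left out 1 library called 0, although the share at an unadjusted p below 0.05 ran from 3.89% without 5xFAD 6 to 15% without 5xFAD 10.

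A call that misses the threshold does not show additivity, so the width of the intervals was also counted. The quartiles of the estimates were -0.20 and 0.18, and percentiles 5 and 95 were -0.68 and 0.62. For 11660 genes, or 68.1%, the whole 95% interval lay within a 2-fold departure in either direction, and for 7261, or 42.4%, within a 1.5-fold departure. This bound followed abundance. It was met by 94.4% of genes with a mean log2 CPM between 4 and 6, and by 0.255% of those below 0. For well measured genes a 2-fold departure can therefore be bounded, and for rare transcripts it cannot be seen at this depth and group size.

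**Figure D1:**
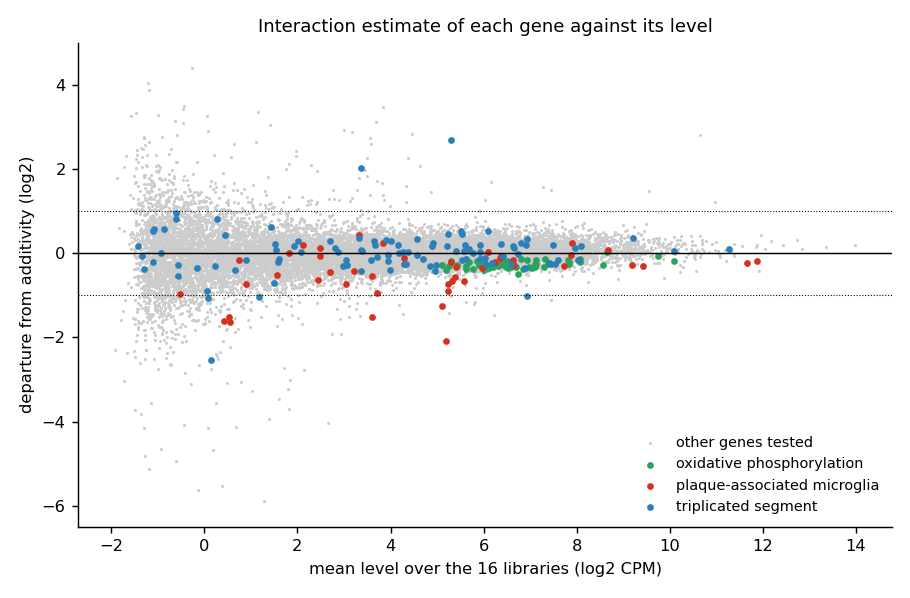
Departure from additivity of each of the 17132 tested genes (vertical axis, log2) against its mean level over the 16 libraries (horizontal axis, log2 CPM); dotted lines mark a 2-fold departure in either direction. The cloud narrows with abundance, the segment genes (blue) scatter around 0, the plaque-associated microglial genes (red) lie mostly below it, and the oxidative phosphorylation genes (green) form a tight band just below it.

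Most genes called higher with amyloid in the Dp16 background were also called higher in the normal one. In 5xFAD-Dp16 against Dp16 mice 512 genes were called higher (2.99% of genes tested) and 6 lower (0.035%), 3.02% in all, and in 5xFAD against WT mice 909 were called higher (5.31%) and 335 lower (1.96%), 7.26% in all. These comparisons share no library. Of the genes called higher, 455 were called in both, which is 88.9% of the list in the Dp16 background and 50.1% of the list in the normal background. Of the 909 genes called higher in 5xFAD against WT mice, 881 also had a positive estimate in 5xFAD-Dp16 against Dp16 mice.

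The falls overlapped far less: 2 genes were called lower in both, 33.3% of the 6 and 0.597% of the 335. Of those 335 genes, 301 had a negative estimate in the Dp16 background. The greater number of calls in one background than in the other is not itself a test of a difference, and the interaction, which is that test, called none.

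To look at genes that respond to amyloid without choosing them on either background, genes were picked by the amyloid effect averaged over both. In this balanced design that is a separate contrast from the interaction, but their errors are unrelated only where all groups spread alike. The mean log2 level of synaptic protein genes had an SD of 0.38 in 5xFAD mice. It was 0.06 in 5xFAD-Dp16, 0.17 in Dp16 and 0.14 in WT mice. Interferon response genes spread least in 5xFAD mice, with an SD of 0.12. How far this choice shifted the medians below was not tested. It called 1473 genes (8.6%). The 1133 genes higher on average (6.61%) had a median departure of -0.14, against -0.00486 over all genes tested, and 801 of them lay below 0 (70.7%, against 50.7% of all genes). At an unadjusted p below 0.05, 95 lay below additivity (8.38%, against 3.61% of all genes) and 8 above (0.706%, against 2.9%). Their median log2 fold change was 0.71 in 5xFAD-Dp16 against Dp16 mice and 0.81 in 5xFAD against WT mice.

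The 340 genes lower on average (1.98%) had a median departure of 0.17, with 297 above 0, where 49.3% of all genes were. At an unadjusted p below 0.05, 43 lay above additivity (12.6%, against 2.9% of all genes) and 0 below. The median log2 fold change of the 340 genes was -0.18 in 5xFAD-Dp16 against Dp16 mice and -0.35 in 5xFAD against WT mice. In both directions the median response was smaller in size in the Dp16 background. With the long minus short score as a covariate the medians were -0.05 and 0.03, and without the 6 libraries of high thalamus score -0.06 and 0.06. Both medians were thus smaller in size without those libraries or with that score in the fit.

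**Figure D2:**
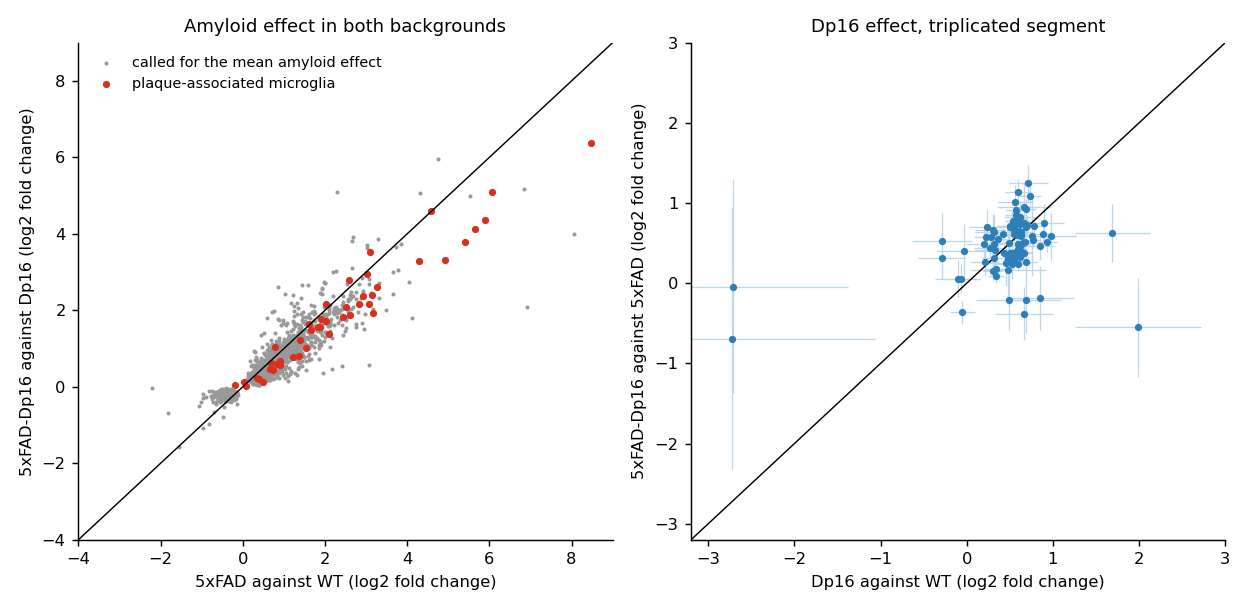
Left, log2 fold change of 5xFAD-Dp16 against Dp16 mice (vertical axis) against that of 5xFAD against WT mice (horizontal axis) for the 1473 genes called for the mean amyloid effect (grey) and the plaque-associated microglial list (red). Right, log2 fold change of 5xFAD-Dp16 against 5xFAD mice (vertical) against that of Dp16 against WT mice (horizontal) for the 92 segment genes whose mean level was at least 0 log2 CPM, with SE bars; the diagonals mark additivity. Red points with large responses lie under the diagonal, whereas the segment genes cluster on it around 0.6 on both axes.

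Plaque-associated microglial genes were mostly called higher with the transgenes in both backgrounds, with the lower median fold change in the Dp16 one. Of the 47 listed, 45 were tested. Of these, 34 were called higher in 5xFAD-Dp16 against Dp16 mice and 41 in 5xFAD against WT mice, where 2.99% and 5.31% of all genes were. The median fold changes in those comparisons were 3.28 and 4.07. The median departure of the list was -0.31, a factor of 0.806, with 37 of 45 below 0 (82.2%, against 50.7% of all genes). At an unadjusted p below 0.05, 6 lay below additivity (13.3%, against 3.61% of all genes) and 0 above: Trem2, Tyrobp, Cst7, Capg, Csf1 and Ctsb. None was called.

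Trem2, the lipid-sensing receptor that drives this state, had 76.1, 60.8, 63.8 and 75.4 CPM in 5xFAD-Dp16 mice, 138, 99.8, 96.4 and 64.5 CPM in 5xFAD mice, 11.01, 11.9, 12.4 and 10.2 CPM in Dp16 mice and 10.5, 9.03, 9.18 and 12.2 CPM in WT mice. The 2 groups without transgenes overlapped, and 3 of the 4 5xFAD libraries lay above every 5xFAD-Dp16 library, while 5xFAD 15 lay within their range. The amyloid effect was 2.60 ± 0.16 log2 in 5xFAD-Dp16 against Dp16 mice and 3.26 ± 0.17 in 5xFAD against WT mice. The departure was -0.66 ± 0.22 (95% interval -1.13 to -0.19, unadjusted p = 0.00933 by edgeR's quasi-likelihood test, adjusted p = 0.718). It stayed between -0.82 and -0.50 in the 16 fits without 1 library each.

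Tyrobp, the signalling adaptor of Trem2, had 56.7, 48.5, 46.7 and 58.6 CPM in 5xFAD-Dp16 mice, 129, 79.0, 74.0 and 55.8 CPM in 5xFAD mice, 9.78, 13.3, 12.3 and 11.7 CPM in Dp16 mice and 11.7, 9.31, 11.8 and 13.9 CPM in WT mice. As for Trem2, 5xFAD 6 was the highest library and 5xFAD 15 fell within the 5xFAD-Dp16 range. Its departure was -0.66 ± 0.25 (95% interval -1.19 to -0.13). With the long minus short score as a covariate it was -0.32, and that of Trem2 -0.50.

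Cst7, the cystatin F gene that is close to silent outside this state, had 68.2, 49.0, 56.3 and 59.6 CPM in 5xFAD-Dp16 mice, 130, 96.0, 83.0 and 34.6 CPM in 5xFAD mice, 0.329, 0.160, 2.09 and 0.254 CPM in Dp16 mice and 0.308, 0.240, 0.283 and 0.126 CPM in WT mice. One Dp16 library, number 12, was far above the other 3. The departure of Cst7, -2.08 ± 0.95, rested on that library, and without it was -0.75 ± 0.89. Clec7a, a pattern recognition receptor of the same state, had 22.8, 16.9, 15.6 and 19.6 CPM in 5xFAD-Dp16 mice, 43.7, 21.1, 23.8 and 21.5 CPM in 5xFAD mice, 0.246, 0.374, 2.71 and 0.508 CPM in Dp16 mice and 0.185, 0.288, 0.565 and 0.672 CPM in WT mice. The same Dp16 library was the high one, and in the double carriers only library 1 passed the lowest 5xFAD library. The departure of Clec7a was -1.53 ± 0.73, and -0.36 without Dp16 12.

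The median of the list did not rest on any 1 library. It stayed between -0.40 and -0.21 in the fits without 1 library each. It was -0.30 with the thalamus score as a covariate, -0.30 without both 5xFAD 6 and 5xFAD 15, and -0.18 with the long minus short score as a covariate. Without the 6 libraries of high thalamus score it was -0.32, but 5xFAD 10 is then the only 5xFAD library. On the scale of list scores (mean log2 CPM of the members, WT mean at 0) the 5xFAD-Dp16 libraries lay between 1.87 and 2.28 and the 5xFAD libraries between 1.92 and 2.75, so the groups overlapped. The mean score was 2.06 ± 0.19 in 5xFAD-Dp16 mice and 2.38 ± 0.34 in 5xFAD mice (SD, n = 4 each). The additive expectation for 5xFAD-Dp16 mice was 2.46. The departure of the score was -0.40 ± 0.23, an SE that takes in the spread of all 4 groups.

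Homeostatic microglial genes, which mark the resting state, gave no such shift: 20 were tested, with a median departure of -0.03, 11 below 0 and 1 at an unadjusted p below 0.05. Their median log2 fold change was 0.94 in 5xFAD-Dp16 against Dp16 mice and 0.73 in 5xFAD against WT mice. The difference between the 2 microglial lists was not tested.

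Among complement genes the 3 chains of C1q, which start the classical pathway and come mostly from microglia, lay below additivity together. C1qb had 173, 147, 155 and 199 CPM in 5xFAD-Dp16 mice, 294, 201, 228 and 171 CPM in 5xFAD mice, 50.5, 56.8, 60.9 and 54.6 CPM in Dp16 mice and 48.8, 46.9, 53.9 and 54.5 CPM in WT mice. Here too 5xFAD 15 lay inside the 5xFAD-Dp16 range and the other 3 5xFAD libraries above it. The departures were -0.52 ± 0.15 for C1qb (unadjusted p = 0.00382 in the same fit), -0.50 ± 0.15 for C1qc and -0.46 ± 0.17 for C1qa. With the length covariate that of C1qb was -0.31. With C3ar1 at -0.83 these were the 4 of 19 complement genes below additivity at an unadjusted p below 0.05 (21.1%, against 3.61% of all genes), and 0 lay above. C4b, the complement gene of reactive glia, departed by -0.17 ± 0.20, and by -0.37 with the length covariate.

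Antigen presentation genes lay below 0 in 21 of 22 cases, where 50.7% of all genes did, with a median departure of -0.26. The exception was H2-DMb1 at 0.77. B2m, which encodes the invariant chain of MHC class I, was nevertheless close to additive. It had 395, 301, 303 and 366 CPM in 5xFAD-Dp16 mice, 419, 297, 369 and 261 CPM in 5xFAD mice, 118, 120, 146 and 116 CPM in Dp16 mice and 117, 103, 124 and 102 CPM in WT mice, a departure of -0.14 ± 0.12. The 2 groups with transgenes overlapped over nearly their whole ranges. The median of the list was -0.10 without WT 2, -0.11 without the libraries of high thalamus score, -0.11 with the length covariate and -0.09 when set against the median of each member's own length bin.

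Interferon response genes were of interest because the duplication holds the receptors. Of 64 tested, 49 were called higher in 5xFAD-Dp16 against Dp16 mice and 55 in 5xFAD against WT mice, where 2.99% and 5.31% of all genes were. Their median departure was -0.17, with 44 below 0 (68.8%, against 50.7% of all genes). At an unadjusted p below 0.05, 6 lay below additivity (9.38%, against 3.61% of all genes) and 0 above. Ifit3, an interferon-induced antiviral effector, departed by -0.75 ± 0.27, and by -0.44 without Dp16 12. The median of the list was -0.03 without Dp16 12, whose interferon score of 0.41 stood above the other 3 Dp16 libraries. It was also smaller in size without both 5xFAD 6 and 5xFAD 15, at -0.04, with the length covariate, at -0.08, and without the libraries of high thalamus score, at -0.10.

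Lysosomal genes lay below 0 in 39 of 52 cases, with a median departure of -0.16 and 7 below additivity at an unadjusted p below 0.05 (13.5%), where 50.7% and 3.61% of all genes were. The median was -0.10 with the length covariate and -0.11 without the libraries of high thalamus score. Among them was Gusb, which encodes a glycoside hydrolase, at -0.50 ± 0.19, and at -0.78 without those libraries. Gfap, the intermediate filament of reactive astrocytes, had 1798, 1756, 1657 and 1757 CPM in 5xFAD-Dp16 mice, 2698, 1822, 2350 and 1388 CPM in 5xFAD mice, 506, 553, 713 and 432 CPM in Dp16 mice and 466, 451, 472 and 458 CPM in WT mice. The 5xFAD libraries lay on both sides of the narrow 5xFAD-Dp16 range. The departure of Gfap was -0.45 ± 0.20 and that of Apoe, the lipid carrier, -0.24 ± 0.17. With the length covariate that of Apoe was -0.04, while that of Gfap stayed at -0.45.

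Across the triplicated segment the median effect of the extra gene dose was close to additive with amyloid; the segment was bounded by Lipi and Zbtb21 (GRCm38, chromosome 16, 75540514 to 97962622). Of its 384 annotated genes 105 were tested. Their median departure was 0.02, with quartiles of -0.23 and 0.21, and 56 lay above 0. The median fold change was 1.42 in 5xFAD-Dp16 against 5xFAD mice and 1.48 in Dp16 against WT mice, where 3 copies against 2 would give 1.5. The genes higher in both numbered 87. Over all genes 42 were called higher in 5xFAD-Dp16 against 5xFAD mice and 38 in Dp16 against WT mice (0.245% and 0.222% of genes tested), of which the segment held 32 and 36. Lower calls numbered 10 and 1 (0.0584% and 0.00584%). At an unadjusted p below 0.05 for the interaction, 2 segment genes lay above additivity (1.9%, against 2.9% of all genes) and 7 below (6.67%, against 3.61%). The whole 95% interval lay within a 2-fold departure for 74 of the 105 (70.5%, against 68.1% of all genes).

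App, whose extra copy comes together with the human transgene in the double carriers, had 2974, 3049, 2971 and 2791 CPM in 5xFAD-Dp16 mice, 1640, 1837, 1736 and 1764 CPM in 5xFAD mice, 3275, 3213, 3179 and 3063 CPM in Dp16 mice and 2032, 2030, 2006 and 1948 CPM in WT mice. The groups with the duplication lay far above those without it, and within each pair the libraries with the transgenes lay below those without. The Dp16 effect was 0.76 in 5xFAD-Dp16 against 5xFAD mice and 0.67 in Dp16 against WT mice, a departure of 0.09 ± 0.11 (95% interval -0.15 to 0.32). How reads of human APP were assigned is not given in the sources used here.

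Rcan1, a regulator of calcineurin, had 65.3, 72.8, 79.0 and 81.8 CPM in 5xFAD-Dp16 mice, 44.6, 48.1, 46.9 and 44.2 CPM in 5xFAD mice, 77.6, 73.8, 75.8 and 70.2 CPM in Dp16 mice and 44.1, 47.2, 49.0 and 44.8 CPM in WT mice. The groups with the duplication lay above those without it, and within each pair the ranges overlapped. The departure was 0.02 ± 0.11 (95% interval -0.21 to 0.24). Sod1, which encodes superoxide dismutase, departed by -0.17 ± 0.11, Dyrk1a, a kinase studied in Down syndrome, by 0.20 ± 0.11, and Cct8, a chaperonin subunit, by -0.16 ± 0.09. Each of these intervals included 0. With the length covariate the estimates were -0.00468 for Sod1, 0.04 for Dyrk1a and -0.11 for Cct8.

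The segment holds 4 receptor genes of the interferon and interleukin 10 systems. Ifnar1, a chain of the type I interferon receptor, had 61.0, 55.8, 63.8 and 57.0 CPM in 5xFAD-Dp16 mice, 37.0, 38.1, 38.4 and 38.5 CPM in 5xFAD mice, 56.7, 50.7, 59.2 and 56.9 CPM in Dp16 mice and 35.9, 37.5, 36.2 and 39.2 CPM in WT mice. The groups with and without the duplication did not overlap, and within each pair the ranges with and without transgenes did. Its departure was 0.06 ± 0.09. Those of Ifnar2, Ifngr2 and Il10rb were -0.14 ± 0.15, -0.07 ± 0.15 and 0.05 ± 0.24, and the 95% intervals of all 4 lay within a 2-fold departure.

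The segment genes of smallest p differed in transcript length. Atp5j, a subunit of the mitochondrial ATP synthase, had 123, 133, 129 and 127 CPM in 5xFAD-Dp16 mice, 122, 98.3, 93.8 and 119 CPM in 5xFAD mice, 142, 151, 141 and 145 CPM in Dp16 mice and 88.8, 93.5, 92.0 and 109 CPM in WT mice. The 5xFAD-Dp16 libraries lay below all Dp16 libraries, and 5xFAD 6 and 15 were the high 5xFAD libraries. Its departure was -0.36 ± 0.13, and -0.10 with the length covariate. Nrip1, a nuclear receptor corepressor with a long transcript, had 69.3, 99.5, 98.2 and 74.7 CPM in 5xFAD-Dp16 mice, 34.1, 51.8, 37.7 and 31.9 CPM in 5xFAD mice, 97.4, 86.8, 98.1 and 76.6 CPM in Dp16 mice and 66.9, 54.9, 61.5 and 54.1 CPM in WT mice. All 5xFAD libraries lay below all WT libraries, and the groups with the duplication overlapped. Its departure was 0.54 ± 0.21, and 0.17 with the length covariate. Brwd1 was the other segment gene above additivity at an unadjusted p below 0.05, and Cldn14, Rwdd2b, Mrpl39, Vps26c, Cfap298 and Sh3bgr lay below it with Atp5j. All 7 genes below had exons shorter than the median of tested genes, and both genes above had longer ones. Over the segment, the 51 genes with exons shorter than that median had a median departure of -0.16, and the 54 longer ones 0.17.

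Genes outside the segment that differed with the Dp16 genotype on average were few. The mean Dp16 effect was called for 91 genes (0.531% of genes tested), 74 of them higher (0.432%) and 17 lower (0.0992%). The segment held 57 of those higher. Outside it, 17 were higher and 17 lower, with median departures of 0.14 and -0.08. Cbs, the chromosome 17 gene of cystathionine beta-synthase, had 17.7, 19.8, 19.0 and 18.2 CPM in 5xFAD-Dp16 mice, 31.6, 26.5, 28.6 and 31.2 CPM in 5xFAD mice, 17.1, 17.2, 16.5 and 21.3 CPM in Dp16 mice and 32.9, 32.6, 29.4 and 27.7 CPM in WT mice. It was lower in both groups with the duplication, with no overlap, and its departure was 0.11 ± 0.13, and 0.35 without the libraries of high thalamus score. Stxbp5l, on chromosome 16 outside the segment, differed from this pattern, with a Dp16 effect of 0.71 in 5xFAD-Dp16 against 5xFAD mice and 0.17 in Dp16 against WT mice.

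Cholesterol biosynthesis gave an example of a list near additivity in which every library of each altered group scored above every WT library. Its mean score was 0.30 ± 0.03 in 5xFAD-Dp16 mice, 0.19 ± 0.09 in 5xFAD mice and 0.14 ± 0.04 in Dp16 mice, with the WT mean at 0 (SD, n = 4 each), and the additive expectation was 0.32. The 26 genes tested had a median departure of -0.03, and all 26 intervals lay within a 2-fold departure. For amyloid 1 member was called higher in 5xFAD-Dp16 against Dp16 mice and 3 in 5xFAD against WT mice, where 2.99% and 5.31% of all genes were.

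Of the 34 lists examined, oxidative phosphorylation had the largest share of members at an unadjusted p below 0.05. Of 59 genes tested, 58 lay below 0, with a median of -0.27 and 21 below additivity at that threshold (35.6%, against 3.61% of all genes). All 59 intervals lay within a 2-fold departure, and the smallest adjusted p was again 0.718. The amyloid effects differed in sign: the median log2 fold change was -0.11 in 5xFAD-Dp16 against Dp16 mice and 0.16 in 5xFAD against WT mice, and no member was called in either. Ndufs3, a core subunit of complex I, had 53.9, 57.0, 56.2 and 57.7 CPM in 5xFAD-Dp16 mice, 73.5, 72.9, 64.1 and 73.4 CPM in 5xFAD mice, 65.4, 66.0, 63.4 and 71.5 CPM in Dp16 mice and 58.1, 62.2, 64.9 and 70.7 CPM in WT mice. The double carriers lay below every other library, and the other 3 groups overlapped. Its departure was -0.39 ± 0.10 (unadjusted p = 0.00100 in edgeR's quasi-likelihood test), and -0.25 with the length covariate.

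This list moved with the libraries that stand apart. The 5xFAD-Dp16 libraries had scores between -0.15 and -0.07, while the score was 0.31 and 0.28 in 5xFAD 6 and 15, and 0.04 and -0.06 in 5xFAD 10 and 13. Its median departure was -0.03 without the 6 libraries of high thalamus score, -0.03 with the long minus short score as a covariate and -0.09 without both 5xFAD 6 and 5xFAD 15. With that covariate 1 member lay below additivity at an unadjusted p below 0.05. With the thalamus score itself as a covariate the median was -0.23, with 17 members below at that threshold, and without 5xFAD 15 alone it was -0.24, with 10. The 22 mitochondrially encoded genes tested, by contrast, had a median departure of 0.16, with 17 above 0, where 49.3% of all genes were.

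Synaptic protein genes and excitatory neuron markers departed in the other direction. Synaptic protein genes lay above 0 in 31 of 34 cases, with a median of 0.25, and excitatory neuron markers in 19 of 20, with a median of 0.29, where 49.3% of all genes did. Their median log2 fold changes were -0.11 and -0.16 in 5xFAD-Dp16 against Dp16 mice, and -0.33 and -0.45 in 5xFAD against WT mice. At an unadjusted p below 0.05, 2 synaptic genes (5.88%) and 1 excitatory marker (5%) lay above additivity, against 2.9% of all genes. Other neuronal lists were mixed. The median departure was 0.31 for CA1 and CA3 pyramidal cell genes, 0.05 for inhibitory neuron genes and -0.02 for dentate granule cell genes. Pclo, a scaffold of the presynaptic active zone, had 316, 342, 338 and 309 CPM in 5xFAD-Dp16 mice, 146, 257, 243 and 127 CPM in 5xFAD mice, 345, 331, 326 and 263 CPM in Dp16 mice and 370, 263, 291 and 301 CPM in WT mice. All 5xFAD libraries lay below the other 12, libraries 6 and 15 furthest, and the other 3 groups overlapped. Its departure was 0.71 ± 0.27, and 0.17 with the length covariate.

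Wfs1, which marks CA1 pyramidal cells, had 164, 182, 187 and 193 CPM in 5xFAD-Dp16 mice, 99.2, 137, 99.4 and 83.1 CPM in 5xFAD mice, 227, 159, 166 and 129 CPM in Dp16 mice and 171, 134, 172 and 177 CPM in WT mice. Every double carrier lay above every 5xFAD library, of which number 15 was again the lowest, and the 5xFAD range met those of Dp16 and WT. Its departure was 0.74 ± 0.23, and 0.45 without the 6 libraries of high thalamus score. The activity-regulated growth factor subunit Inhba had 3.71, 5.95, 6.42 and 4.62 CPM in 5xFAD-Dp16 mice, 3.59, 4.05, 3.64 and 3.09 CPM in 5xFAD mice, 6.12, 5.93, 6.10 and 5.25 CPM in Dp16 mice and 7.21, 5.86, 8.85 and 6.01 CPM in WT mice. The 5xFAD libraries lay below all Dp16 and WT libraries, and the double carriers reached from the one range to the other. Its departure was 0.78 ± 0.26 (unadjusted p = 0.00850 in the same fit). Immediate early genes as a list had a median departure of 0.25, with 24 of 28 above 0, where 49.3% of all genes were. The median was 0.02 without the libraries of high thalamus score and 0.13 without WT 16.

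The synaptic and excitatory medians were -0.14 and -0.09 without the 6 libraries of high thalamus score, where 5xFAD 10 is the only 5xFAD library. They were -0.08 and -0.05 with the long minus short score as a covariate. The synaptic scores were -0.52 and -0.83 in 5xFAD 6 and 15, and 0.05 and -0.25 in 5xFAD 10 and 13. Mature oligodendrocyte genes, which are high where white matter or thalamus is included, ran opposite to them. Their median departure was -0.33 in all libraries and 0.68 without those 6. The only 5xFAD library left in that fit, 5xFAD 10, had the lowest oligodendrocyte score of all libraries, -0.43. With the thalamus score as a covariate over all 16 libraries, the medians were 0.16 for synaptic, 0.17 for excitatory and -0.10 for oligodendrocyte genes. The oligodendrocyte median was 0.20 with the length covariate. Without both 5xFAD 6 and 5xFAD 15 the synaptic, excitatory and oligodendrocyte medians were 0.002, -0.007 and 0.19. These lists thus depended on how thalamus markers and transcript length were handled, and on those 2 libraries.

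**Figure D3:**
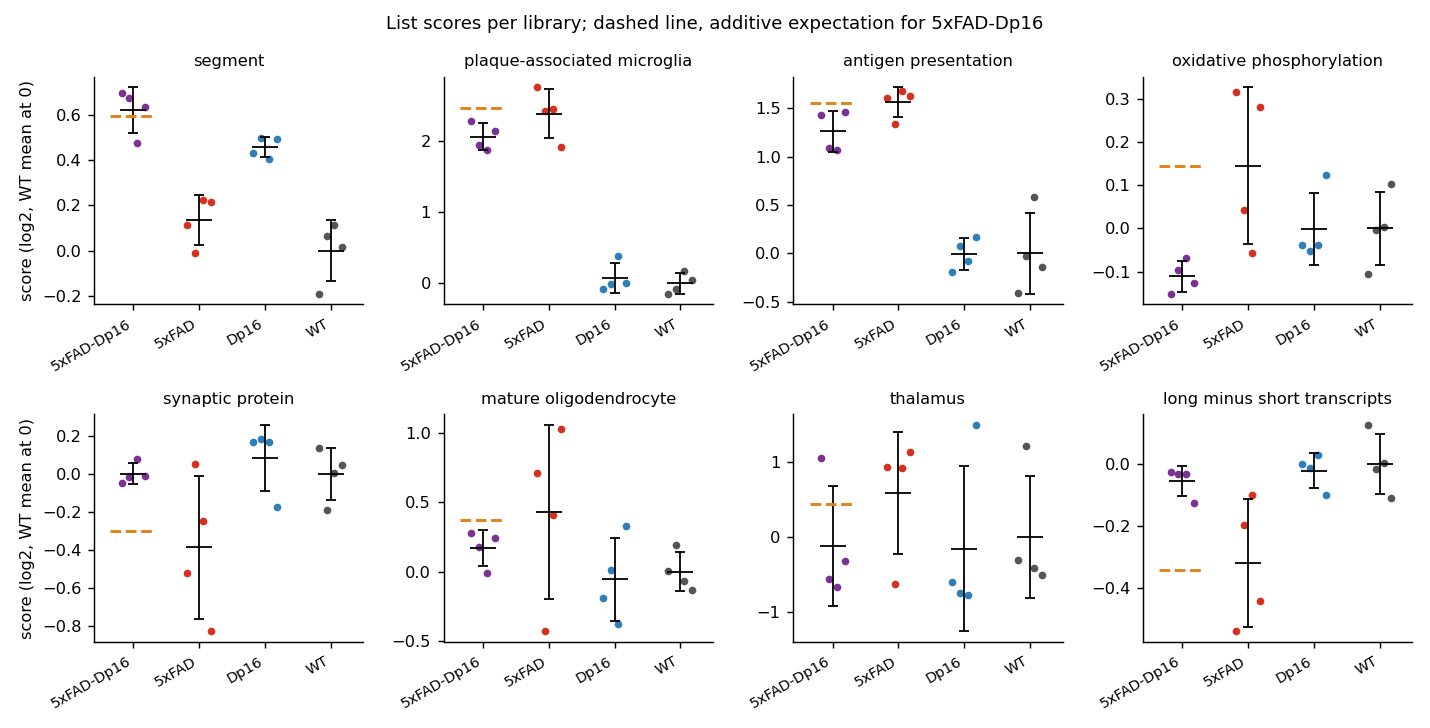
Score of 7 gene lists and of long minus short transcripts in each library (vertical axes, log2 with the WT mean at 0) in the 4 groups; points are libraries, black bars the mean and SD over 4, and the dashed line the additive expectation for 5xFAD-Dp16. The segment sits on its expectation, the plaque-associated microglial and oxidative phosphorylation scores lie below theirs, the 5xFAD group has the widest spread in the synaptic, oligodendrocyte and length panels, and all groups are spread in the thalamus panel.

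**Figure D4:**
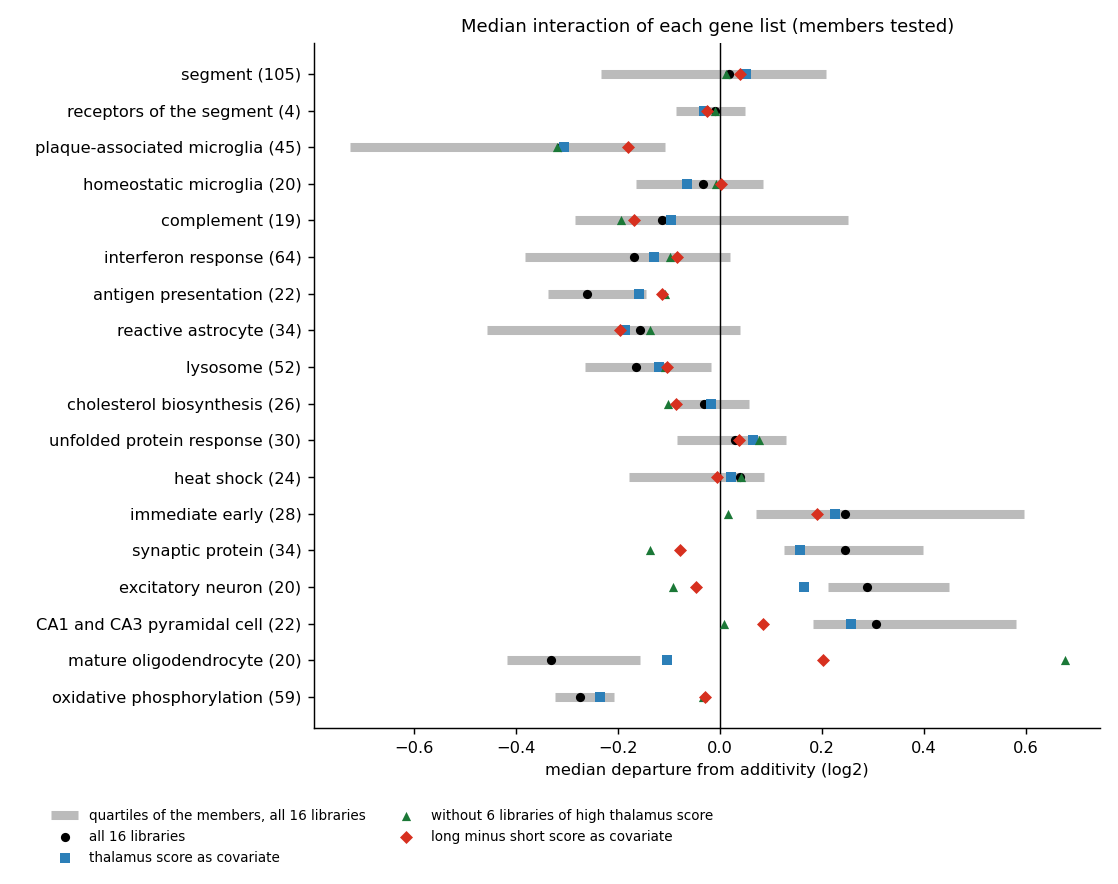
Median departure from additivity (horizontal axis, log2) of 18 gene lists over all 16 libraries (black, with the quartiles of the members in grey) and under 3 alternatives; the number of members tested is in brackets. The segment and its receptors stay near 0 and the plaque-associated microglial list below it in all 4, while the synaptic, excitatory, oligodendrocyte and oxidative phosphorylation medians move towards 0 or past it in at least 1.

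Departures followed transcript length across the whole transcriptome. In the 5 bins of exon length, from shortest to longest, with median lengths of 1141, 2147, 3143, 4412 and 7005 bases, the median departure was -0.18, -0.09, -0.02, 0.05 and 0.17. Of the 618 genes below additivity at an unadjusted p below 0.05, 321 were in the shortest bin, and of the 496 above it, 299 in the longest. The trend was present in the component comparisons that hold the 5xFAD group. In 5xFAD-Dp16 against 5xFAD mice the median was -0.19 in the shortest bin and 0.13 in the longest, and in 5xFAD against WT mice 0.18 and -0.15. It was nearly flat in the others, at -0.000684 and -0.00423 in 5xFAD-Dp16 against Dp16 mice, and 0.0018 and -0.0141 in Dp16 against WT mice.

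The lists above differ in length in the same sense: oxidative phosphorylation genes had a median exon length of 983 bases, plaque-associated microglial genes 1930 and synaptic protein genes 6188. Set against the median of their own length bin, their median departures were -0.13, -0.25 and 0.15. With the long minus short score as a covariate the shortest and longest bins had medians of -0.02 and 0.01. The score is built from those same bins, so medians near 0 there were largely set by its construction. In that fit 362 genes, or 2.11%, passed an unadjusted p below 0.05, with 0 called. Without both 5xFAD 6 and 5xFAD 15 there were 502, or 2.93%, with 0 called, and the shortest and longest bins still had medians of -0.08 and 0.08. What produced the length difference between libraries was not tested.

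**Figure D5:**
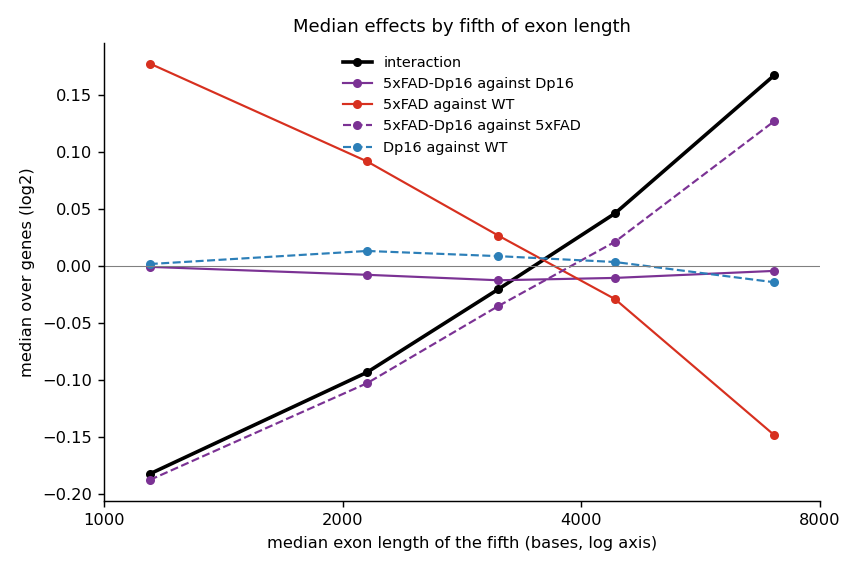
Median over genes (vertical axis, log2) of the interaction and of its 4 component comparisons in 5 bins of the tested genes by exon length (horizontal axis, bases, log scale). The interaction is -0.18 in the shortest bin and 0.17 in the longest, 5xFAD-Dp16 against 5xFAD climbs likewise, 5xFAD against WT runs the other way, and the 2 comparisons without the 5xFAD group stay near 0.

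The 10 lowest and 10 highest single-gene estimates, among genes that averaged at least 0 log2 CPM and had an unadjusted p below 0.01, were of mixed function. They differed in exon length, as the bins above did. All of the highest but Tomm6 had exons longer than the median of tested genes, 3143 bases. All of the lowest but Slc22a21 had shorter ones. Prim1, a DNA primase subunit, had 2.01, 2.84, 2.80 and 2.38 CPM in 5xFAD-Dp16 mice, 4.56, 4.54, 3.35 and 5.87 CPM in 5xFAD mice, 3.62, 2.89, 3.16 and 3.81 CPM in Dp16 mice and 3.27, 2.88, 1.79 and 2.73 CPM in WT mice. The double carriers lay below all 5xFAD and all Dp16 libraries, although each single genotype was higher than WT on average. The departure was -1.21 ± 0.27 (95% interval -1.77 to -0.64, unadjusted p = 0.000345 in edgeR's quasi-likelihood test), and between -1.40 and -1.08 without 1 library each. P2rx5, an ATP-gated ion channel, had 2.19, 1.64, 1.83 and 2.84 CPM in 5xFAD-Dp16 mice, 2.30, 2.63, 3.25 and 3.37 CPM in 5xFAD mice, 3.04, 2.83, 3.12 and 2.84 CPM in Dp16 mice and 1.603, 2.06, 1.88 and 1.26 CPM in WT mice. Both single genotypes lay above WT without overlap, and the double carriers overlapped all 3 other groups. Its departure was -1.25 ± 0.30.

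Cyba, the membrane subunit of the phagocyte NADPH oxidase, combined an amyloid response with a departure. It had 16.1, 11.8, 15.4 and 18.5 CPM in 5xFAD-Dp16 mice, 33.4, 21.1, 25.1 and 22.2 CPM in 5xFAD mice, 6.74, 7.32, 5.83 and 6.65 CPM in Dp16 mice and 5.18, 6.72, 6.73 and 6.85 CPM in WT mice. All 4 5xFAD libraries lay above all 5xFAD-Dp16 libraries, and the groups without transgenes overlapped. Its departure was -0.77 ± 0.22, and -0.44 with the length covariate. The other genes of lowest estimate were Slc22a21, Snhg15, Traf3ip3, Mob3c, Tnfaip8l2, Haus4 and Zfp335os, between -1.56 and -0.79.

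On the high side, Ryr3, an intracellular calcium release channel, had 41.6, 40.5, 41.7 and 39.0 CPM in 5xFAD-Dp16 mice, 23, 32.5, 33.8 and 22.9 CPM in 5xFAD mice, 32.7, 33.2, 36.8 and 35.5 CPM in Dp16 mice and 43.5, 35.4, 37.4 and 37.5 CPM in WT mice. The 5xFAD-Dp16 libraries lay above all 5xFAD and all Dp16 libraries, and within the WT range. Its departure was 0.69 ± 0.17, and 0.35 with the long minus short score as a covariate. Ago3, an Argonaute protein of the small RNA pathway, had 48.3, 43.6, 44.1 and 43.8 CPM in 5xFAD-Dp16 mice, 29.98, 25.03, 39.5 and 34.1 CPM in 5xFAD mice, 32.9, 36.9, 37.4 and 40.1 CPM in Dp16 mice and 43.5, 38.9, 44.2 and 33.3 CPM in WT mice. Its 5xFAD-Dp16 libraries also lay above all 5xFAD and all Dp16 libraries, and library 1 above the WT range. Its departure was 0.60 ± 0.16, and 0.51 with the length covariate. It was 0.93 without the libraries of high thalamus score, where 5xFAD 10, the lowest 5xFAD library for Ago3, is the only one left. Zfp169 and Tomm6, also among the 10 highest estimates, departed by 0.66 ± 0.16 and 1.07 ± 0.31.

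Of the 10 highest estimates, 4 belonged to long noncoding RNAs: Kcnq1ot1, Malat1, Ftx and Cdr1os. Snhg15 and Zfp335os, among the 10 lowest, are long noncoding RNAs too. The share of such RNAs among all tested genes is not given here. Kcnq1ot1, the antisense transcript of an imprinted domain, had 16.6, 16.4, 10.5 and 14.1 CPM in 5xFAD-Dp16 mice, 8.68, 9.80, 12.8 and 9.07 CPM in 5xFAD mice, 9.57, 7.96, 7.83 and 9.99 CPM in Dp16 mice and 15.8, 12.5, 9.84 and 11.6 CPM in WT mice. The 5xFAD-Dp16 libraries lay above all Dp16 libraries, but overlapped the 5xFAD and WT ranges. Its departure was 1.01 ± 0.25. Malat1, an abundant nuclear RNA, had 277, 262, 212 and 246 CPM in 5xFAD-Dp16 mice, 140, 138, 261 and 194 CPM in 5xFAD mice, 174, 171, 146 and 206 CPM in Dp16 mice and 238, 229, 187 and 220 CPM in WT mice. The 5xFAD libraries 6 and 10 were the lowest. Its departure was 0.77 ± 0.25, and 0.55 with the length covariate. It was 1.23 without the libraries of high thalamus score, where 5xFAD 10 is the only 5xFAD library. The kit marks strand, but the strand setting of the counting is not given in the sources used here, so reads of Kcnq1ot1 and its sense partner cannot be told apart.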

How the data were processed

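RNA of 16 mouse hippocampi was sequenced as polyadenylated, strand-specific libraries, per the labels' protocols. The authors deposited raw read counts per gene for all samples in one table, and gene lengths were derived from the RPKM values that the authors deposited (reads per kilobase of exon and library size, per the file headers). Per the submitters' processing notes, the tools were HISAT2 2.1.0 and HTSeq 0.6.1, with SAMtools 1.5, FastQC 0.11.5 and bcl2fastq, and the build was GRCm38. Settings, strand and multi-mapping treatment are not given in the sources used here. No column was left unmapped and no 2 libraries held identical values. Each library is 1 of the 4 mice that the design text counts per group, and whether any shared a litter is not given, so p-values measure the spread between these libraries.

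Counts were tested with edgeR 4.0.16 in R 4.3.3: genes kept by filterByExpr with a minimum count of 10, TMM factors (0.9445 to 1.13), a robust quasi-likelihood fit of 4 groups and sex over all 16 libraries, and Benjamini-Hochberg adjustment over the 17132 genes. The SE is the estimate divided by the root of the test statistic. The interaction, its 4 component comparisons and the mean effects came from the same fit. Log2 CPM and list scores were computed from the same counts. Mitochondrial genes took 4.96% to 6.87% of counts. Chromosomal positions, from the GENCODE M21 annotation of GRCm38, were found for 17123 of the tested genes.

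Named genes were the 10 highest and 10 lowest estimates (unadjusted p below 0.01, mean log2 CPM of 0 or more, predicted genes left out), the 2 members of smallest p in each list, the 4 such segment genes, the 5 such amyloid-responsive genes per direction and a set of known genes. Other list members past an unadjusted p of 0.05 were named after their values were seen. Members and lists were chosen with earlier results of these data known. Alternatives were DESeq2 1.42.0, limma 3.58.1 on log2 RPKM, other scalings and filters, covariates, and leaving out libraries. The script for all genes was tested on simulated data. Precision is limited by 4 libraries a group. Some results are not reported here.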

Additional observations from a re-analysis of the deposited data

Results flagged for a closer look

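Dixon's test for 1 value far from the other 3 of its group was applied to 25 genes and 12 scores in the 4 groups, 148 groups of values in all. It marked 18, or 12.2%, where chance marks about 1 in 20. Several of the marks fell on the same libraries, and lists were chosen with earlier results known. No excess over chance can therefore be read from this share.

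Dp16 12 was marked for microglial and interferon measures. It had 2.092 CPM of Cst7 (0.1603 to 0.3287 in the other Dp16 libraries), 2.715 CPM of Clec7a (0.2465 to 0.5079), 145.8 CPM of B2m (116.4 to 119.9) and an interferon response score of 0.4065 (-0.07092 to -0.006714).

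Libraries of high thalamus score were marked against their groups. The thalamus score was 1.504 in Dp16 14 (-0.7684 to -0.5959 in the others) and 1.217 in WT 4 (-0.5012 to -0.3072), and in the 5xFAD group library 10 was the low one at -0.6281 (0.921 to 1.139). Dp16 14 also had a synaptic score of -0.1758 (0.1675 to 0.1824), an excitatory neuron score of -0.2521 (0.1263 to 0.181), an oxidative phosphorylation score of 0.1236 (-0.05272 to -0.03794) and 21.29 CPM of Cbs (16.47 to 17.21). WT 4 had 134.5 CPM of Wfs1 (171.3 to 176.8).

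The remaining values stood alone. Clec7a had 43.7 CPM in 5xFAD 6 (21.06 to 23.77) and Ndufs3 64.08 CPM in 5xFAD 13 (72.86 to 73.48). Ago3 had 48.3 CPM in 5xFAD-Dp16 1 (43.59 to 44.06), and the long minus short score was -0.1273 in 5xFAD-Dp16 11 (-0.033 to -0.0276). Cyba had 5.179 CPM in WT 2 (6.722 to 6.849), and the lysosome score was 0.1095 in WT 7 (-0.0514 to -0.02846).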

How the results depend on the processing

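The count of genes called for the interaction was 0 in all but 2 alternatives. It was 290 with no filter on low counts, where 32180 genes were tested and the median prior degrees of freedom was infinite, against 4.863 with the filter. It was 15 without the 6 libraries of high thalamus score, where the 5xFAD group rests on library 10 alone, assumed to vary like the other groups. Ago3 was among those 15. The genes with the 95% interval within a 2-fold departure numbered 10398 without those libraries and 16110 with limma on log2(RPKM + 1), the lowest and highest of the alternatives. For the median interaction, segment genes gave 0.02; it was -0.0202 with limma on log2(RPKM + 0.1), 0.0523 with the thalamus score as a covariate, -0.0262 with the choroid plexus score as a covariate, 0.0667 without both 5xFAD 6 and 5xFAD 15, and between -0.00999 and 0.0654 without 1 library each, the highest without WT 2. The median of the genes lower with amyloid, 0.17, was 0.0569 without the libraries of high thalamus score, 0.0269 with the long minus short score as a covariate, 0.0844 without both 5xFAD 6 and 5xFAD 15, and 0.13 to 0.21 without 1 library each. The long minus short covariate and the fit without both libraries were chosen after seeing the data. Cstb reversed, to 0.13, without the libraries of high thalamus score. The causes of the median shifts and of this reversal were not tested. Over named genes and their alternatives, 3427 values were counted as unchanged, 163 moved further and 24 passed the threshold. Of these 24, 23 came without the filter on low counts and the other was for Ago3. Unchanged values stayed short of the threshold and within the SE of the main estimate. A reversal was counted only for genes with an unadjusted p below 0.05. Differences taken on CPM itself rather than on log2 were judged by direction alone. The library numbers used above are unique to a library, so pairing was examined with the sample numbers 1 to 4 in the source names. Deviations of same-numbered libraries correlated between -0.4061 and 0.6328, with 1 to 3 of the 6 pairs of each number over 0.1, so the rule that every pair be over 0.1 was not met. With that number as a replicate block, 0 genes were called, and 1197, or 6.99%, passed an unadjusted p below 0.05. Rare transcripts are limited by depth: 0.255% of genes below 0 mean log2 CPM had an interval within a 2-fold departure.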

Other observations

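Several gene groups not described above had a median departure close to 0. Over all tested genes 49.3% of estimates lay above 0, and 68.1% of intervals lay within a 2-fold departure. Unfolded protein and integrated stress response genes had a median departure of 0.03 over 30 genes, with 27 intervals within a 2-fold departure, and heat shock genes 0.04 over 24, with 21. Orthologs of human chromosome 21 genes that lie on mouse chromosomes 10 and 17, and so outside the duplication, had a median of 0.05 over 43 genes, with 35 intervals within it. Endothelial markers had a median of -0.01 over 19 genes, with 17 intervals within a 2-fold departure. Proliferation genes had a median of 0.01 and p53 target genes 0.04, but their intervals were wide, with 7 of 24 and 11 of 20 within a 2-fold departure. Alzheimer risk orthologs had a median of 0.08, with 25 of 39 above 0 and 32 intervals within a 2-fold departure.

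Choroid plexus markers could not be read. Their median departure was 2.26 over 18 genes, with 17 above 0, but 0 had an interval within a 2-fold departure, and the median was 0.22 without 5xFAD-Dp16 8. The choroid plexus score ran from -3.97 to 1.69 over the libraries. Clic6 and Kcne2, segment genes that the choroid plexus also expresses, had SEs of 1.88 and 2.34. The segment genes lower in both groups with the duplication numbered 4, and these were 2 of them.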
